A study of Mus musculus with 8 samples.

Results

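The genes described here write, maintain, read and remove DNA methylation. They were chosen by name as Dnmt1, Dnmt3a, Dnmt3b, Uhrf1, Hells, Mbd2, Tet1, Tet2 and Tet3, and every probe set that the array annotation assigns to them was taken, which gave 24 of 45037 tested probe sets for 9 of the 18193 genes with a probe set of their own. Their RNA was measured in mouse adult fibroblasts (MAFs) grown from the peritoneal fascia of mice with loxP sites on both Rb alleles. All populations carried p53DD, a truncated dominant negative p53 delivered by retrovirus, so that the response of the p53 pathway was compromised throughout and no group had normal p53. The GFP Naïve cells (RB+p53DD) had received an adenovirus with GFP only and were untreated. The Cre Naïve cells (RB-p53DD) had received an adenovirus with GFP and Cre recombinase, which deletes an exon of Rb, and were untreated as well. After exposure to cisplatin (CDDP) for 24 h and outgrowth in medium without the drug, the corresponding populations are called GFP Recurred (RB+p53DD) and Cre Recurred (RB-p53DD). Each population was a virally transduced pool rather than a clone. It was measured on 2 arrays labelled as biological replicates, so there were 8 arrays in 4 groups. The ages of the mice are not given in the sources used here.

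The methyl group on cytosine in CpG dinucleotides is set on unmethylated DNA by Dnmt3a and Dnmt3b and is copied to the new strand after each replication by Dnmt1. Uhrf1 binds the hemimethylated DNA behind the replication fork and recruits Dnmt1, Hells is a nucleosome remodeller that opens packed chromatin to the methyltransferases, and Mbd2 binds methylated CpG and recruits repressors. The Tet enzymes oxidise the methyl group, the first step of its removal, and CpG methylation of promoters is a known way in which genes are kept silent in fibroblasts. The arrays measure RNA of these genes and not methylation.

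The values are log2 signals from the Robust Multichip Average (RMA), so that a difference of 1 is a 2-fold difference in signal. A difference was taken as passing at the study's limits, 1.5-fold or more with an adjusted p under 0.25, and a stricter limit was an adjusted p under 0.05 at the same fold. The p values came from limma with Benjamini-Hochberg adjustment over all 45037 probe sets. They measure only the spread between the arrays, and with 2 arrays in each group the smallest two-sided p of an exact permutation test is 0.333. Signals of different probe sets are not compared with each other, because each probe set has its own response. In pools of cells, fewer expressing cells and less RNA per cell cannot be told apart.

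The gene targeted by Cre was examined first. The Rb1 probe set 1417850_at read 7.98 and 8.07 on the GFP Naïve arrays, 6.21 and 5.72 on the Cre Naïve arrays, 8.21 and 8.78 on the GFP Recurred arrays and 4.98 and 5.45 on the Cre Recurred arrays. The arrays labelled RB-p53DD were thus all below those labelled RB+p53DD. The second Rb1 probe set, 1444400_at, lay between 3.52 and 4.47 with no such separation, and whether either probe set lies in the deleted exon was not established here. The 2 arrays of a population correlated with r from 0.9855 to 0.9953 over all probe sets, and the array medians ran from 5.38 to 5.41. The fibroblast markers Col1a2 and Vim, a collagen chain and an intermediate filament, read from 12.7 to 13.8 and from 13.2 to 13.6. The list of 12 fibroblast markers was lowest on Cre Recurred replicate 1, where its median was -0.97 relative to the mean of the 8 arrays. It was -0.08 on Cre Recurred replicate 2 and -0.14 to 0.45 on the other 6. Of the 12, Fap, Dcn and Prrx1 were lower in Cre Recurred than in GFP Recurred cells, by 2.39, 1.60 and 1.05 on the log2 scale, and Thy1 was higher by 0.91 (adjusted p from 0.128 to 0.154). The list's median there was -0.76 against 0.04 over all genes, with 1 of the 12 positive against 56.7% of all genes. In Cre Recurred against Cre Naïve cells it was -0.68 against 0.05, with 1 of the 12 positive against 57.3%. No measured leukocyte or endothelial marker, of 6 and 5, passed in any comparison (by unadjusted p at most 1 was under 0.05 in a comparison), and Ptprc, which defines leukocytes, lay between 2.95 and 3.19. Of the other leukocyte markers, Csf1r read from 6.37 to 8.19, Cd3e from 5.71 to 6.26 and Lyz2 from 4.45 to 6.92. Csf1r and Lyz2 were highest on GFP Naïve replicate 1. The part of leukocytes in the pools was not tested. Of 10 mesothelial and epithelial markers, Krt7, Msln and Krt19 were higher in the Cre Recurred than in the GFP Recurred cells, by 1.02, 1.71 and 1.97 on the log2 scale (adjusted p = 0.0361, 0.0731 and 0.146). Over all genes, each read at its brightest probe set, 11.4% passed in that comparison. The median of the 10 markers was 0.05 against 0.04 over all genes, and their lowest difference was -0.40. Of the 10, 7 were positive, against 56.7% of all genes. Some of the 10 had low signals on all arrays, as Cdh1 (2.69 to 2.85) and Lrrn4 (2.71 to 2.99), which limits what the list median shows. Msln and Krt7 passed in Cre Recurred against Cre Naïve cells too, by 2.14 and 0.76 (adjusted p = 0.132 and 0.145), where 1.65% of genes did. Of 6 muscle and adipocyte markers, the muscle filament gene Des was higher by 1.65 in Cre Recurred than in GFP Recurred cells (adjusted p = 0.109), with all 6 positive and a median of 0.38, and the muscle actin Acta1 was higher by 0.84 than in Cre Naïve cells (adjusted p = 0.176). By array the median of these 6 markers was 0.36 and 0.11 on the Cre Recurred arrays, 0.22 on Cre Naïve replicate 2 and from -0.24 to -0.12 on the other 5.

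Uhrf1 and Hells, both partners of the maintenance methyltransferase, were highest in the Cre Recurred cells at every probe set they have. The Uhrf1 probe set 1415810_at read 10.44 and 10.36 in the GFP Naïve, 10.30 and 10.86 in the Cre Naïve, 10.18 and 10.36 in the GFP Recurred and 11.08 and 11.01 in the Cre Recurred cells. Both Cre Recurred arrays lay above the other 6, of which Cre Naïve replicate 2 came closest. The second Uhrf1 probe set, 1415811_at, read 7.46 and 8.03 in the GFP Naïve, 7.41 and 7.79 in the Cre Naïve, 7.54 and 7.32 in the GFP Recurred and 8.62 and 8.38 in the Cre Recurred cells. Again the Cre Recurred arrays did not overlap with any other, and the next highest was now GFP Naïve replicate 2.

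Hells, the remodeller also known as Lsh, showed the same order at 3 probe sets. Probe set 1417541_at read 9.79 and 10.27 in the GFP Naïve, 9.81 and 10.14 in the Cre Naïve, 9.85 and 9.89 in the GFP Recurred and 10.75 and 10.32 in the Cre Recurred cells. The lower Cre Recurred array stood only slightly above GFP Naïve replicate 2. Probe set 1430139_at read 8.25 and 8.10 in the GFP Naïve, 8.22 and 8.05 in the Cre Naïve, 7.84 and 7.97 in the GFP Recurred and 9.07 and 8.61 in the Cre Recurred cells. Probe set 1453361_at read 5.36 and 5.59 in the GFP Naïve, 5.70 and 5.54 in the Cre Naïve, 5.50 and 5.45 in the GFP Recurred and 6.37 and 6.27 in the Cre Recurred cells. At these 2 probe sets the Cre Recurred arrays were well apart from the rest, and the other 3 populations lay close together. By the mean of the brightest probe set, the order of the populations for Hells was Cre Recurred, GFP Naïve, Cre Naïve and GFP Recurred, and for Uhrf1 it was Cre Recurred, Cre Naïve, GFP Naïve and GFP Recurred. Below the Cre Recurred cells, the neighbours that were compared in the fit did not pass, and for Hells the arrays of the Cre Naïve and GFP Recurred cells overlapped.

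**Figure D1:**
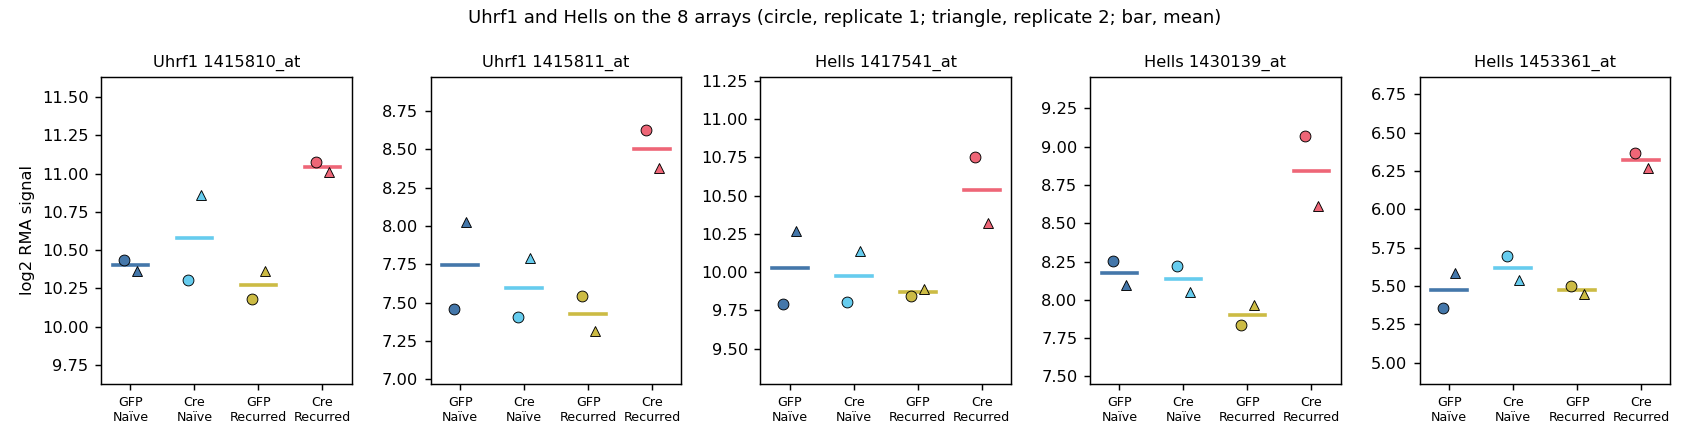
Log2 RMA signal (vertical axis) of the 2 Uhrf1 and 3 Hells probe sets on the 8 arrays, grouped by population along the horizontal axis, with circles for replicate 1, triangles for replicate 2 and a bar for the mean of 2 arrays. Each panel spans 2 log2 units. In every panel both Cre Recurred arrays lie above the other 6 arrays, by the least at Hells 1417541_at, where Cre Recurred replicate 2 reads 10.32 and GFP Naïve replicate 2 reads 10.27.

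In the comparison of the recurred cells without and with RB, 5 of the 24 probe sets passed, all of them higher in the Cre Recurred cells, and they were the 2 of Uhrf1 and the 3 of Hells. Over all probe sets 8.85% passed in this comparison and 4.08% passed as higher. Uhrf1 was higher by 0.77 at 1415810_at (standard error 0.19, 1.71-fold, adjusted p = 0.11) and by 1.07 at 1415811_at (standard error 0.23, 2.11-fold, adjusted p = 0.0853). Hells was higher by 0.67 at 1417541_at (standard error 0.22, adjusted p = 0.191), by 0.94 at 1430139_at (standard error 0.18, adjusted p = 0.0698) and by 0.85 at 1453361_at (standard error 0.14, adjusted p = 0.052). None of the 5 passed the stricter limit, which 0.722% of all probe sets did, and by unadjusted p 6 of the 24 members were under 0.05, against 16.8% of all probe sets. The groups did not overlap at 16 member probe sets that were higher and 4 that were lower in the Cre Recurred cells, against 31.2% and 20.7% of all probe sets. The 5 calls depended on the arrays of the comparison. None of the 5 passed when replicate 1 of the GFP Recurred cells was left out (adjusted p from 0.267 to 0.515), nor without their replicate 2 (0.361 to 0.543), nor without replicate 1 of the Cre Recurred cells (0.274 to 0.621), while each of the differences stayed between 0.46 and 1.19. In those 3 cases the count over all probe sets went from 3988 to 346, 42 and 270. All 5 passed without any one of the other arrays.

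The recurrence of cells without RB, Cre Recurred against Cre Naïve, gave 1 passing probe set of the 24, Hells 1453361_at, which rose by 0.70 (standard error 0.14, adjusted p = 0.2). Over all probe sets 1.16% passed. The other Uhrf1 and Hells probe sets had differences of 0.46 and 0.90 for Uhrf1 and 0.56 and 0.71 for Hells, with adjusted p from 0.287 to 0.409. The 24 members held 6 probe sets with an unadjusted p under 0.05, against 12% of all probe sets, and these were the 5 of Uhrf1 and Hells and Dnmt3b 1449052_a_at. Hells 1453361_at did not pass under a SAM-type statistic, in a fit of the compared arrays alone, with the replicate number as a block (adjusted p = 0.256), or without Cre Naïve replicate 1, either GFP Recurred array or Cre Recurred replicate 1. Its difference stayed between 0.62 and 0.78 with any 1 array left out.

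In the cells that kept RB, recurrence went with no passing member by limma or by a SAM-type statistic. Over all 45037 probe sets, 6 passed by limma in GFP Recurred against GFP Naïve (0.0133%), and 464 passed by the SAM-type statistic. The Uhrf1 differences were -0.13 (95% confidence interval -0.58 to 0.32) and -0.31 (-0.86 to 0.23), and the Hells differences were -0.16, -0.27 and 0.00, so that 2-fold differences lay outside all 5 intervals. The difference between the recurrence effects without and with RB was 0.59 and 1.22 for the Uhrf1 probe sets (adjusted p = 0.507 and 0.345) and 0.73, 0.98 and 0.70 for those of Hells (adjusted p = 0.487, 0.337 and 0.349). No member passed this test, whereas 0.4% of all probe sets did, and 3 members had an unadjusted p under 0.05, against 10.3% of all probe sets. A dependence of the recurrence effect on RB was therefore not established for these genes at this number of arrays. The comparisons of the Cre Recurred cells share those 2 arrays and are not independent of one another.

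RB loss by itself, Cre Naïve against GFP Naïve, gave no passing member and no passing probe set on the whole array (0%), and the smallest adjusted p on the array was 0.997. The targeted gene did not pass either, although Rb1 1417850_at differed by -2.06 (4.18-fold, limma adjusted p = 0.997). The lack of passing members is therefore no evidence that RB loss left them unchanged. By unadjusted p, 0 of the 24 members and 2.57% of all probe sets were under 0.05. The Uhrf1 differences were 0.18 and -0.15 and the Hells differences -0.06, -0.04 and 0.15. Of the 24 probe sets 17 were higher in the Cre Naïve cells, against 49.3% of all probe sets, and their median difference was 0.14 against -0.003 over all. Of these, 6 did not overlap between the groups, against 13.8% of all probe sets that were higher without overlap.

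A comparison of the Cre Recurred cells with the mean of the other 3 populations was added after the values had been seen. There 4 members passed, against 6.42% of all probe sets (2.26% as higher). Uhrf1 was higher by 0.63 and 0.91 (adjusted p = 0.117 and 0.0816), and Hells by 0.77 at 1430139_at (adjusted p = 0.069) and by 0.80 at 1453361_at (adjusted p = 0.0368, past the stricter limit, as 0.802% of all probe sets were). Hells 1417541_at, at 0.58, missed the fold limit narrowly. No member passed without Cre Recurred replicate 1. On 7 of the 24 probe sets both Cre Recurred arrays lay above the other 6 arrays and on 2 they lay below, against 11.9% and 7.37% of all probe sets. The 7 were the 5 of Uhrf1 and Hells with Mbd2 1417165_at and Dnmt3b 1418351_a_at, and the 2 were Dnmt3b 1449052_a_at and Tet1 1455425_at.

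**Figure D2:**
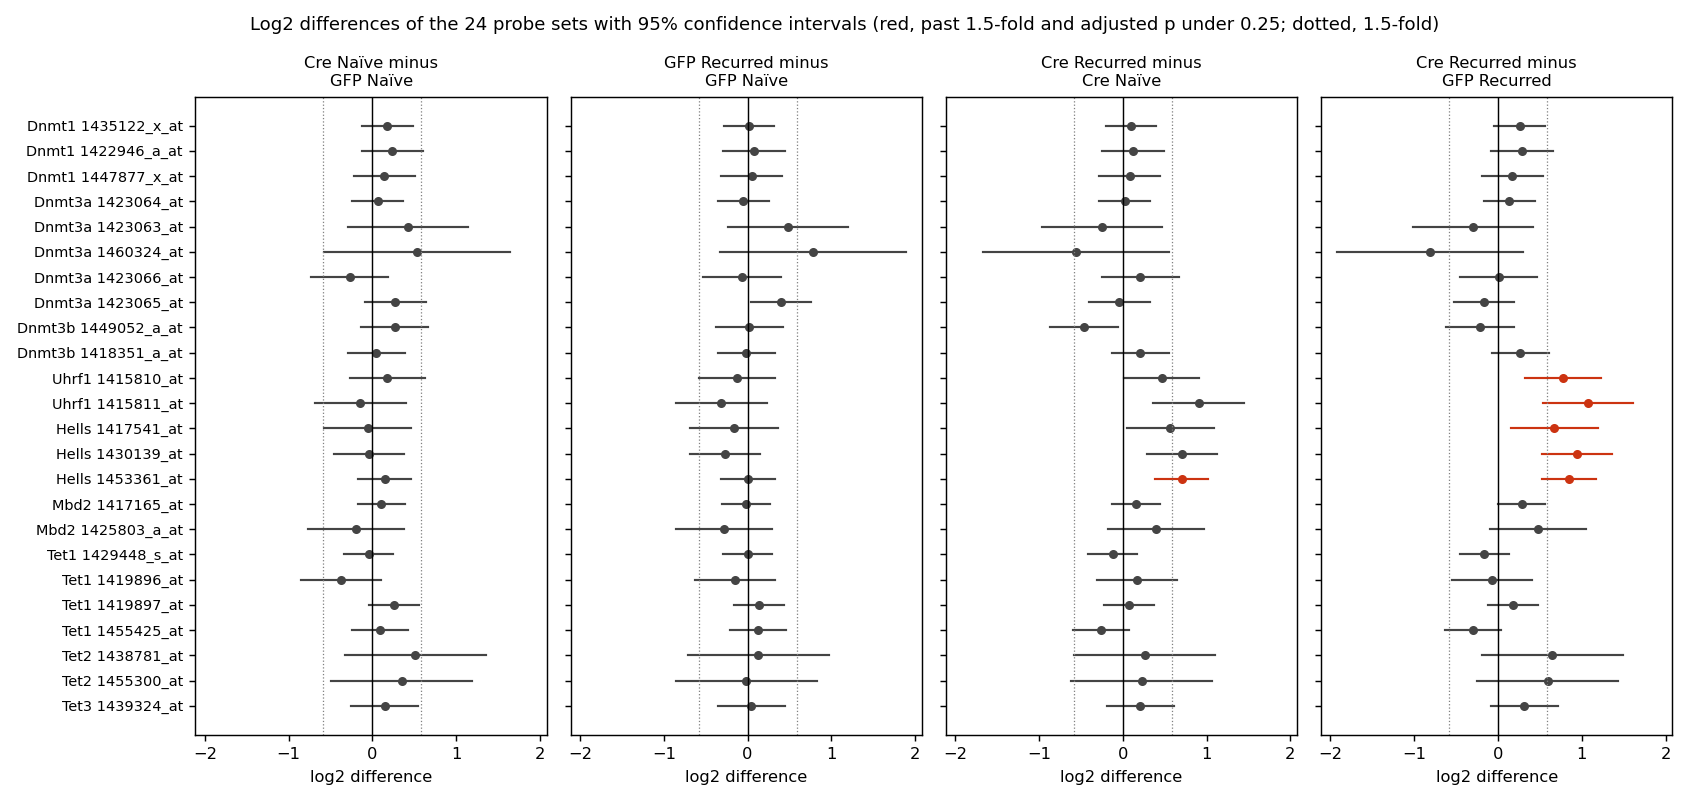
Log2 differences (horizontal axes) of the 24 probe sets (vertical axis) in 4 comparisons, with points for the limma estimate, bars for its 95% confidence interval, dotted lines at 1.5-fold and red for probe sets past 1.5-fold and an adjusted p under 0.25. Red is seen at the 2 Uhrf1 and 3 Hells probe sets in Cre Recurred minus GFP Recurred and at Hells 1453361_at in Cre Recurred minus Cre Naïve, and in neither of the other panels.

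Dnmt1, the maintenance methyltransferase, moved little at its 3 probe sets. Probe set 1435122_x_at read 10.53 and 10.36 in the GFP Naïve, 10.57 and 10.69 in the Cre Naïve, 10.41 and 10.52 in the GFP Recurred and 10.76 and 10.68 in the Cre Recurred cells. The Cre Recurred arrays were above the GFP Recurred arrays but level with Cre Naïve replicate 2. The Cre Recurred to GFP Recurred difference was 0.26 (95% confidence interval -0.04 to 0.56, adjusted p = 0.372), and at 1422946_a_at and 1447877_x_at it was 0.29 and 0.17 (adjusted p = 0.418 and 0.657). Recurrence without RB gave 0.10, 0.13 and 0.08. A 1.5-fold difference lay outside the intervals of 1435122_x_at in all 4 comparisons drawn in the plot of log2 differences. At 1422946_a_at the interval of the recurred comparison, -0.08 to 0.66, included 1.5-fold. Whether Dnmt1 differed less than Uhrf1 and Hells was not tested, and the lower ends of the 5 Uhrf1 and Hells intervals, from 0.15 to 0.53, also lay under 1.5-fold.

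The promoter windows of Uhrf1, Hells and Dnmt1 are shown because these 3 genes, which act together in maintenance at replication, were the members whose windows held the E2F motif, and E2F is the family of factors that RB holds in check. The windows run from 250 bases before to 50 bases after each RefSeq transcript start (GRCm38.p6) and were searched on both strands for the letters TTTCCCGC, TTTCGCGC, TTTGGCGC and TTTGCCGC, which are 4 forms of 1 motif, with no other motif searched. A match was found in 3 of the 8 members with a window and in 704 of 27025 genes (2.6%). Dnmt3a, Dnmt3b, Tet1, Tet2 and Tet3 had windows without these letters. The search left out the windows of 1 chromosome, for the members and for all genes alike. No window of Mbd2 was among those searched, so Mbd2 was not examined for the motif. In 19 G1/S genes with a window, used as a reference list, 7 held a match (36.8%). The stretches below hold 30 bases each, with the matching letters in capitals, and lie at chr17:56304117-56304146 (plus strand) upstream of a Uhrf1 start, at chr19:38930917-38930946 (plus strand) upstream of a Hells start, and at chr9:20952824-20952853 and chr9:20952574-20952603 (both minus strand) upstream and downstream of the same Dnmt1 start.
Uhrf1: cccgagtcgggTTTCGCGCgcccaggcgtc
Hells: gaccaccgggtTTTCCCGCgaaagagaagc
Dnmt1 upstream: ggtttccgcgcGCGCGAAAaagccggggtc
Dnmt1 downstream: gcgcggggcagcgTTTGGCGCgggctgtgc
The letters are read 5′ to 3′ on the strand of the gene. The upstream Dnmt1 match lies on the opposite strand and reads as the reverse complement of TTTCGCGC. A match is a property of the letters and not a measured binding site, and Dnmt1 holds 2 such matches without having passed in any comparison.

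Because Uhrf1 and Hells are transcribed mainly in dividing cells, their values were set beside lists of cell cycle genes. Of 22 measured G1/S genes that E2F is known to drive, 4 rose past the limits in the Cre Recurred against the GFP Recurred cells and none fell, and 11.4% of all 18193 genes passed in either direction when each gene was read at its brightest probe set. These were Gins1 and Gins2, subunits of the replicative helicase complex, by 1.09 and 0.78 (adjusted p = 0.0384 and 0.082), Cdt1, which loads the helicase at origins, by 0.90 (adjusted p = 0.0581), and the transcription factor Mybl2 by 1.15 (adjusted p = 0.0829). The list's median difference was 0.31 against 0.04 over all genes, 19 of the 22 genes were positive against 56.7% of all genes, and 4 of the 22 had a larger difference than Uhrf1 and Hells at their brightest probe sets. In recurrence without RB, Gins1 alone of the list rose past the limits, by 0.68 (adjusted p = 0.22), and the list's median was 0.19. Of 13 measured mitotic genes, Cenpf, a kinetochore protein, and Bub1, a checkpoint kinase, were higher by 0.85 and 0.63 in the Cre Recurred than in the GFP Recurred cells (adjusted p = 0.174 and 0.181), with a list median of 0.39 and all 13 positive, against 0.04 and 56.7% over all genes. All 13 were also positive in Cre Naïve against GFP Naïve cells, with a median of 0.26, against 49.7% and -0.001 over all genes. In recurrence without RB, 9 of the 13 were positive, with a median of 0.07, against 57.3% and 0.05.

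By array, the median of the G1/S list relative to the mean of the 8 arrays was 0.29 and 0.06 on Cre Recurred replicates 1 and 2 and from -0.19 to 0.02 on the other 6. That of the mitotic list was 0.06 and 0.38 on the Cre Recurred arrays, 0.34 on Cre Naïve replicate 2 and from -0.28 to -0.06 on the other 5. The G1/S list thus stood highest on the array where Hells was highest, and the mitotic list was high on Cre Naïve replicate 2, where Uhrf1 1415810_at came closest to the Cre Recurred level. For Uhrf1 1415811_at the closest array was GFP Naïve replicate 2, where the mitotic median was -0.09. The fibroblast markers were lowest on Cre Recurred replicate 1, as given above. The part of cell cycle activity and of cell makeup in the Uhrf1 and Hells values was not tested.

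**Figure D3:**
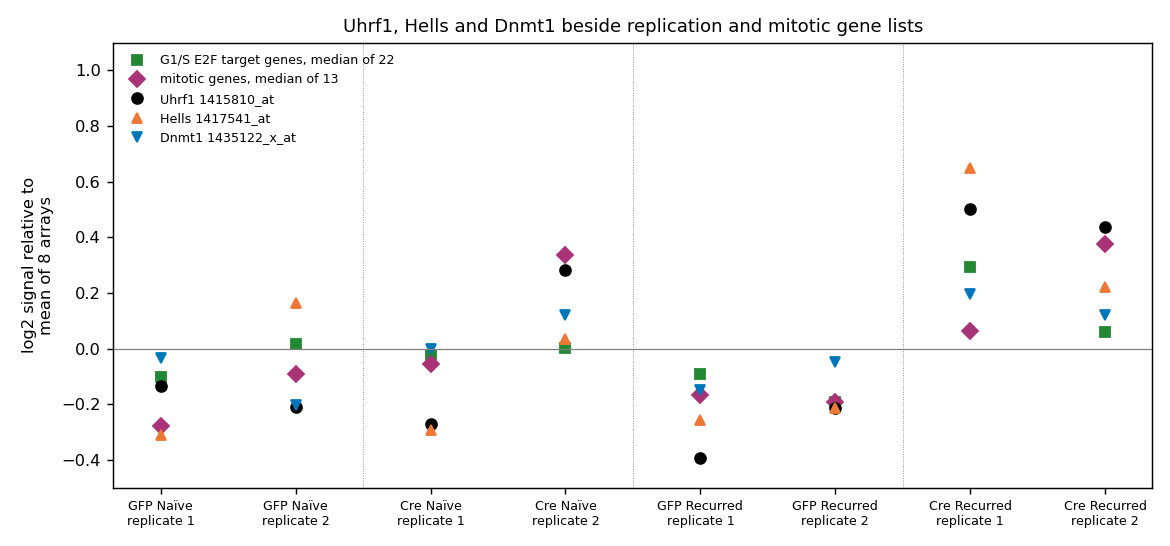
Log2 signal relative to the mean of the 8 arrays (vertical axis) on each array (horizontal axis) for Uhrf1, Hells and Dnmt1 at their brightest probe sets, and the median of the same quantity over 22 G1/S genes and 13 mitotic genes. On both Cre Recurred arrays all 5 symbols lie above 0, and on both GFP Recurred arrays all 5 lie below it, while on Cre Naïve replicate 2 the mitotic median (0.34) and Uhrf1 are high and the G1/S median is near 0.

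The de novo methyltransferases did not pass at any probe set. Dnmt3b was read by 2 probe sets that ran in opposite directions. Probe set 1449052_a_at read 5.77 and 5.66 in the GFP Naïve, 5.75 and 6.22 in the Cre Naïve, 5.73 and 5.75 in the GFP Recurred and 5.47 and 5.58 in the Cre Recurred cells. Probe set 1418351_a_at read 5.37 and 5.52 in the GFP Naïve, 5.36 and 5.62 in the Cre Naïve, 5.37 and 5.49 in the GFP Recurred and 5.64 and 5.76 in the Cre Recurred cells. The Cre Recurred arrays were the lowest of the 8 at the first probe set and the highest at the second. Against the other 3 populations the differences were -0.29 and 0.24, with an adjusted p of 0.327 for each. Recurrence without RB gave -0.46 (standard error 0.17, adjusted p = 0.379) at the first, where the Cre Naïve mean was raised by replicate 2, and 0.21 at the second. The suffix of both names marks probes shared by transcript variants of a gene, and which variants each reads was not established here, so no direction can be given for Dnmt3b as a gene.

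Dnmt3a was read by 5 probe sets, and their patterns did not all match. The brightest, 1423064_at, lay between 6.36 and 6.65 on all 8 arrays, with differences from -0.05 to 0.14 in the 4 comparisons between pairs of populations. Probe set 1460324_at read 5.65 and 4.72 in the GFP Naïve, 5.63 and 5.81 in the Cre Naïve, 5.65 and 6.28 in the GFP Recurred and 4.51 and 5.80 in the Cre Recurred cells. Probe set 1423063_at read 6.21 and 5.47, 6.21 and 6.33, 6.16 and 6.47, and 5.67 and 6.37 in the same order. Both of these were lowest on GFP Naïve replicate 2 and Cre Recurred replicate 1, and their r over the 8 arrays was 0.96, as a description of 2 probe sets on the same RNA. Probe set 1423065_at was lowest on the same 2 arrays, at 3.57 and 3.80, though hardly below GFP Naïve replicate 1 at 3.81, with r of 0.86 and 0.79 to 1423063_at and 1460324_at, so that 3 of the 5 probe sets shared this pattern. The remaining 1423066_at ranged from 5.13 to 5.79. These 2 arrays also had the lowest median of the fibroblast markers, -0.14 and -0.97, and the part of cell makeup in the Dnmt3a values was not tested. The spread within populations left wide intervals, as for 1460324_at in Cre Recurred against GFP Recurred, where the difference was -0.81 (95% confidence interval -1.92 to 0.30, adjusted p = 0.455). That probe set passed as lower when Cre Recurred replicate 2 was left out, which leaves the low array alone in its population. The 1423065_at difference of 0.40 in recurrence with RB had an unadjusted p of 0.036 and an adjusted p of 0.871, the one member with an unadjusted p under 0.05 there, against 5.52% of all probe sets.

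Mbd2, the methyl-CpG reader, was slightly higher in the Cre Recurred cells without passing. Probe set 1417165_at read 10.07 and 10.14 in the GFP Naïve, 10.25 and 10.17 in the Cre Naïve, 10.03 and 10.14 in the GFP Recurred and 10.42 and 10.32 in the Cre Recurred cells. Both Cre Recurred arrays were the highest of the 8, by a narrow margin over Cre Naïve replicate 1. The difference from the GFP Recurred cells was 0.28 (95% confidence interval 0.00 to 0.57, adjusted p = 0.294), below the fold limit. At 1425803_a_at it was 0.48 (standard error 0.24, adjusted p = 0.383), with GFP Naïve replicate 2, at 8.88, as high as the Cre Recurred arrays at 8.91 and 8.60.

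Among the erasers Tet2 had the larger differences. Probe set 1438781_at read 7.29 and 6.39 in the GFP Naïve, 7.04 and 7.67 in the Cre Naïve, 6.88 and 7.06 in the GFP Recurred and 7.31 and 7.93 in the Cre Recurred cells, and 1455300_at read 6.83 and 6.33, 6.40 and 7.46, 6.43 and 6.70, and 6.95 and 7.37 in the same order. The Cre Recurred and GFP Recurred arrays did not overlap at either probe set, but Cre Naïve replicate 2 was as high as the Cre Recurred arrays. The difference between the recurred populations was 0.65 and 0.59 (standard error 0.36 for each, adjusted p = 0.425 and 0.468). When only the 4 compared arrays were fitted, which leaves out the spread of the naïve arrays, both Tet2 probe sets passed (adjusted p = 0.206 and 0.184), and so they did with a SAM-type statistic on those arrays (0.167 and 0.149). Over all 45037 probe sets, 4838 passed in the fit of the compared arrays and 5180 with the SAM-type statistic, against 3988 in the fit of all 8 arrays. The call for Tet2 thus turned on whether the naïve arrays entered the estimate of the spread.

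Tet3 was read by 1 probe set, 1439324_at, at 4.49 and 4.33 in the GFP Naïve, 4.46 and 4.65 in the Cre Naïve, 4.40 and 4.50 in the GFP Recurred and 4.56 and 4.97 in the Cre Recurred cells. The difference between the recurred populations was 0.31 (95% confidence interval -0.09 to 0.71, adjusted p = 0.418), with Cre Recurred replicate 2 as the one array apart from the rest. The 4 probe sets of Tet1 lay between 2.46 and 4.13 on all arrays, with differences between the recurred populations of -0.16 at the brightest, 1429448_s_at, and from -0.30 to 0.18 at the others (adjusted p from 0.358 to 0.912). No Tet1 probe set passed in any comparison, and all 4 had a mean below the median of all probe sets. Of the 24 member probe sets 18 had a mean above that median.

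**Figure D4:**
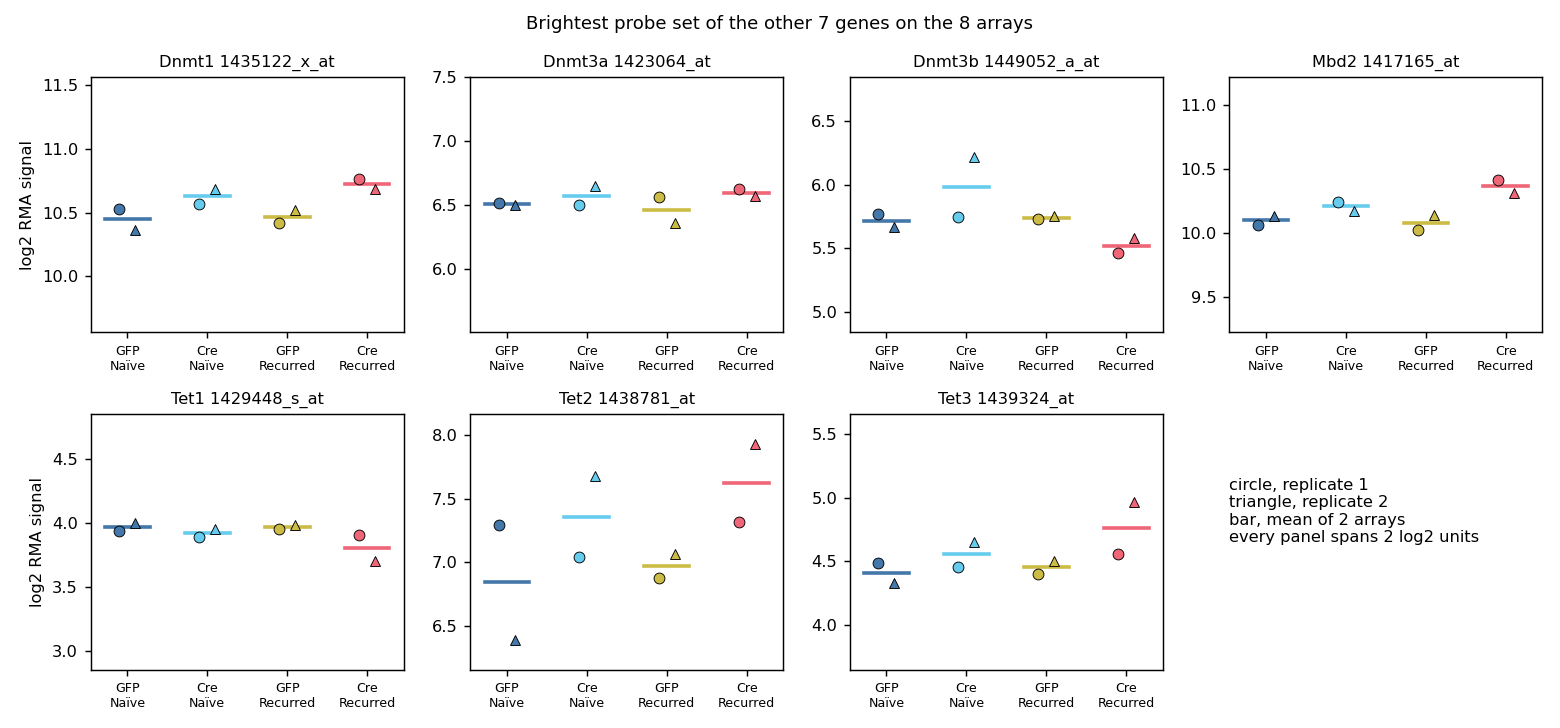
Log2 RMA signal (vertical axes) of the brightest probe set of the other 7 genes on the 8 arrays, by population along the horizontal axes, with circles for replicate 1, triangles for replicate 2 and bars for the mean of 2 arrays. Every panel spans 2 log2 units. Dnmt1, Dnmt3a and Tet1 stay nearly flat, Dnmt3b and Tet2 are highest or among the highest on Cre Naïve replicate 2, and the Cre Recurred arrays of Dnmt3b 1449052_a_at are the lowest of the 8.

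The genes around these enzymes were read from lists written for the pathway, at the brightest probe set of each gene and in the comparison of the recurred populations. Of 14 measured cofactors and stability factors of the methyltransferases, 1 was higher and 1 lower, against 11.4% of all genes that passed in either direction. Cdca7l, a relative of the Hells activator Cdca7, read 7.04 and 6.95 in the GFP Recurred and 8.48 and 8.59 in the Cre Recurred cells, a difference of 1.54 (standard error 0.23, adjusted p = 0.0469). On the naïve arrays Cdca7l read from 7.87 to 8.61, so that the GFP Recurred arrays were the ones apart from the rest. Cdca7 itself differed by 0.20 (adjusted p = 0.536). Dnmt3l, a catalytically inactive partner of the de novo enzymes, was lower by 1.56 (adjusted p = 0.158), with Cre Recurred arrays at 5.00 and 6.32 and the other 6 between 6.51 and 7.49. Usp7, which protects Uhrf1 and Dnmt1 from degradation, differed by 0.24 (adjusted p = 0.407).

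Of 8 other measured readers of methylated CpG, 7 had positive differences, against 56.7% of all genes, and none of those passed. The zinc finger reader Zbtb4 was lower by 1.11 (adjusted p = 0.104), with 8.49 and 8.45 in the GFP Recurred against 6.99 and 7.72 in the Cre Recurred cells. Of 9 measured genes of active demethylation and base excision, Gadd45g, a stress-induced factor tied to demethylation, was lower by 1.14 (adjusted p = 0.0469), at 9.28 and 9.74 in the GFP Recurred and 8.38 and 8.35 in the Cre Recurred cells. Apex1, the endonuclease of base excision repair, was higher by 0.63 (adjusted p = 0.108). Of 11 measured genes of the methyl donor cycle, which supplies S-adenosylmethionine, the folate enzyme Mthfd1 was higher by 0.60 (adjusted p = 0.126), and 9 of the 11 were positive with a median of 0.16, against 56.7% and 0.04 over all genes. Mthfd1 read 9.91 and 9.78 in the GFP Recurred and 10.65 and 10.25 in the Cre Recurred cells. On the naïve arrays it read from 10.32 to 10.47, so that the GFP Recurred arrays were the ones apart. Not one gene of these 4 lists passed in recurrence without RB, where 1.65% of all genes passed. In each list 1 gene had an unadjusted p under 0.05 there, against 12% of all probe sets.

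As genes whose promoters are known to be methylated in somatic cells, 20 germline genes were read beside the enzymes. In the Cre Recurred against the GFP Recurred cells Dppa2, normally active in early embryos and the germline, was higher by 3.18 (standard error 0.26, adjusted p = 0.015), and Ddx4, a germ cell helicase, was lower by 2.94 (adjusted p = 0.244). Dppa2 read from 2.99 to 3.69 on the other 6 arrays and 6.19 and 6.55 on the Cre Recurred arrays. Ddx4 was low on Cre Naïve replicate 2 as well, at 2.52 against 6.40 on replicate 1. The remaining 18 genes did not pass, and the list's median was -0.02 against 0.04 over all genes, so that Dppa2 was the one gene of the list to pass as higher. In recurrence without RB Dppa2 was again the one gene of the list to pass, at 3.01 (adjusted p = 0.03). Rhox5, without passing, read from 5.23 to 6.71 on the naïve arrays and from 7.24 to 7.68 on the recurred arrays. Its difference was 1.63 in recurrence with RB (limma adjusted p = 0.862) and 1.44 in recurrence without RB. Methylation of these promoters was not measured on the arrays.

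Over the 8 arrays, the genes whose signal followed the members most closely were named from 11217 genes with a mean above the median. For Uhrf1 they were Usp47 and Tdrkh (r = 0.99 for each), for Hells Phlpp1 and Nars2 (r = 0.98 for each), and for Dnmt1 Bbs12 and Tram1 (r = 0.98 for each). Uhrf1 1415811_at and Hells 1417541_at had r = 0.96 with each other, and the 2 Uhrf1 probe sets had r = 0.82. These values describe 8 arrays in 4 populations, most of the range comes from the Cre Recurred arrays, and the best of so many genes will be high in any case.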

How the data were processed

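RNA was measured on 8 Affymetrix expression arrays of the mouse, 2 per population. Per the labels the authors used RMA, in which background correction and quantile normalization precede a summary over the probes of each set, and the deposited values are on the log2 scale. The software and its version are not given in the sources used here. No array was left out, and 64 control probe sets were. Genes were named by the platform annotation, in which 34945 probe sets carry 1 symbol, 932 several and 9160 none. Names can be old. The members and lists were chosen with earlier results of these data known.

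A model with 1 mean per population was fitted to all 8 arrays with limma 3.58.1 in R 4.3.3 (4 residual and 3.07 prior degrees of freedom), where the study had used SAM. It was tested on simulated data. A gene's representative is its probe set with the highest mean over the arrays. Of each list, up to 4 genes with the smallest p in a comparison could be named. Col1a2, Vim, Ptprc, Cdca7 and Usp7 were named for their roles after the values were seen. Csf1r, Cd3e and Lyz2 were named for their signals, also after the values were seen. Alternatives were array weights, a trended and robust prior, a SAM-type statistic, the compared arrays alone, cyclic loess, median centring, the replicate number as a block, filters on probe sets and each array left out. Promoters came from RefSeq (GRCm38.p6), with those on 1 chromosome left out. Figures were drawn with matplotlib 3.10.9. Precision is limited by having 2 arrays per population.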

Additional observations from a re-analysis of the deposited data

Results flagged for a closer look

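At 3 member probe sets the arrays moved in opposite directions without overlap, down in recurrence with RB and up without it, or the reverse, as 9.28% of all probe sets did. Uhrf1 1415810_at differed by -0.13 with RB and 0.46 without, and the test of the difference itself gave 0.59 (adjusted p = 0.507). Hells 1430139_at differed by -0.27 and 0.71, with a difference of 0.98 (adjusted p = 0.337). Tet1 1455425_at differed by 0.13 and -0.26, with a difference of -0.39 (adjusted p = 0.543). None of the 3 passed the limits.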

How the results depend on the processing

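With 2 arrays per population, 1 array decided many calls. In recurrence without RB the count of passing members was 1, and it was 0 with the SAM-type statistic, with the compared arrays alone and with a replicate block, and 0 to 3 with an array left out. Between the recurred populations it was 5, and 0 to 6 with an array left out. For the difference between the recurrence effects it was 0, and 0 to 4, with 2 without Cre Naïve replicate 2 (both Uhrf1 probe sets) and 4 without Cre Recurred replicate 2 (Uhrf1 1415811_at, Dnmt3a 1460324_at and 2 of Hells). Against the other populations it was 4, and 0 to 6. The deviations of same-numbered arrays from their population means correlated with r from -0.25 to 0.31, highest between the GFP Recurred and Cre Recurred cells. These 6 values have mixed signs and cannot decide whether some same-numbered arrays shared a preparation. The block changed no other count of members. Over all probe sets, 524 passed in recurrence without RB, and 303 with array weights, 116 with the SAM-type statistic, 55 with the compared arrays alone and 19 to 2895 with an array left out. The weights of the 2 arrays of a population were equal, as they must be with 2 arrays and 1 mean per population. They therefore cannot show whether 1 array of a population was aberrant. The SAM-type statistic and the fit of the compared arrays were not run for the difference between the effects or against the other populations. The cause of these changes was not tested beyond the loss of an array or of its spread.

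Directions turned only for differences that had not passed, at the brightest probe sets. In recurrence with RB, cyclic loess gave 0.014 for Mbd2, -0.035 for Tet1 and -0.0026 for Tet3, and median centring -0.0012 for Tet1, where the differences as reported were -0.02, 0.0009, 0.04 and 0.0009. With an array left out, recurrence with RB ranged from -0.066 to 0.10 for Dnmt1, -0.15 to 0.051 for Dnmt3a, -0.029 to 0.074 for Dnmt3b, -0.40 to 0.075 for Hells, -0.073 to 0.037 for Mbd2, -0.031 to 0.033 for Tet1, -0.32 to 0.58 for Tet2 and -0.033 to 0.12 for Tet3. RB loss ranged from -0.0098 to 0.14 for Dnmt3a, -0.29 to 0.18 for Hells and -0.097 to 0.46 for Uhrf1, and recurrence without RB from -0.049 to 0.096 for Dnmt3a and -0.055 to 0.58 for Tet2. The difference between the effects ranged from -0.0079 to 0.16 for Dnmt1, -0.028 to 0.18 for Dnmt3a, -0.32 to 0.59 for Tet2 and -0.037 to 0.37 for Tet3.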
